A study of Homo sapiens with 4 samples.

Results

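Peaks of γH2AX were counted inside 8 large genes known for lying at common fragile sites: FHIT, WWOX, MACROD2, IMMP2L, LRP1B, CSMD1, DLG2 and NAALADL2. The genes were chosen by name for lying at such sites and not by a peak value, but with earlier results of these data known. They are 8 of 19970 protein-coding genes in the RefSeq table used. Each gene was taken as its full RefSeq extent on GRCh38, from 0.900 Mb for IMMP2L to 2.17 Mb for DLG2 and 13.1 Mb in sum, and a peak belonged to a gene when the peak's midpoint lay inside it.

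γH2AX, histone H2A.X phosphorylated at its tail, is laid down in chromatin around DNA double-strand breaks and stalled replication forks. Common fragile sites are regions present in every person's genome that tend to break when replication is slowed. They often coincide with very long genes, which are transcribed and replicated late over distances with few replication origins, and such genes are frequent places of deletion in tumours.

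The chromatin came from SK-UT1, an established cell line of uterine leiomyosarcoma, a smooth muscle tumour, and was assayed by chromatin immunoprecipitation and sequencing with an antibody to γH2AX. Control cells received 0.1% DMSO, the solvent. The other cultures received 1 µM OTS186935, an inhibitor of the histone methyltransferase SUV39H2, or 0.5 µM doxorubicin, a drug that traps topoisomerase II on cut DNA, or 1 µM OTS186935 together with 0.5 µM doxorubicin, called the combination here. Each condition was 1 library, the treatment time is not given in the sources used here, and nothing below is a test: intervals are exact 95% intervals (Poisson for densities, binomial for shares and ratios of counts) that cover counting error only and say nothing of the spread between cultures.

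The merged lists held 72858 peaks under DMSO, 59710 under OTS186935, 47495 under doxorubicin and 29213 under the combination, or 24.0, 19.7, 15.7 and 9.64 peaks per Mb of chromosomes 1 to 22 and X. The sources used here do not give read totals. The lowest local background at a peak, which reflects the fragments of the whole library, was 0.454, 0.397, 0.389 and 0.428 fragments in that order. The lowest summit in a list was 3 fragments high with DMSO, OTS186935 and doxorubicin and 4 with the combination, so the lists did not admit peaks at the same height. Differences between lists therefore cannot be told apart from differences in depth and in calling.

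The start of a gene is the place where its sequence can be set beside a peak, so 4 promoters are printed here: those of the 2 members whose listed promoter overlapped a peak and, beside them, those of FHIT and WWOX, the classical fragile genes, whose promoters did not. Sequences are RefSeq windows on GRCh38.p14, 250 bases before to 50 bases after a transcript start, read 5′ to 3′ on the gene's strand, with every CpG dinucleotide in capitals.
MACROD2 promoter: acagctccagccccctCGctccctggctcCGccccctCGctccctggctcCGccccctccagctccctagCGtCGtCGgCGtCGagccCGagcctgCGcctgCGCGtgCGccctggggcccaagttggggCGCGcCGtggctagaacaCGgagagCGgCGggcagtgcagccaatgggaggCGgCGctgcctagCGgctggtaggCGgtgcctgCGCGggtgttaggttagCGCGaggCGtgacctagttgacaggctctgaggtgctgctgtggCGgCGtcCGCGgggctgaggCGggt
DLG2 internal promoter: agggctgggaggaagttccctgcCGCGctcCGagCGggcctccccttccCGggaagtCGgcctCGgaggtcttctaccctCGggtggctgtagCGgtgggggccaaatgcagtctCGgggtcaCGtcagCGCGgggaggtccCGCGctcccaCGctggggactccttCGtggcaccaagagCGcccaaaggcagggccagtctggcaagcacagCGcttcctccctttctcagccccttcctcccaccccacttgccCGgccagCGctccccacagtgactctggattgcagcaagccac
WWOX promoter: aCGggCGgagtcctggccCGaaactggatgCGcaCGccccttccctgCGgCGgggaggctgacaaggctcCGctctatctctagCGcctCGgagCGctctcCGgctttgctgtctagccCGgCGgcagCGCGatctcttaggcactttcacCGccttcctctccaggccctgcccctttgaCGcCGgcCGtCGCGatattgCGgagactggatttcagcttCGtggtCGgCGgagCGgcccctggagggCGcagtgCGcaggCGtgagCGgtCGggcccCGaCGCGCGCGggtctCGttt
FHIT promoter: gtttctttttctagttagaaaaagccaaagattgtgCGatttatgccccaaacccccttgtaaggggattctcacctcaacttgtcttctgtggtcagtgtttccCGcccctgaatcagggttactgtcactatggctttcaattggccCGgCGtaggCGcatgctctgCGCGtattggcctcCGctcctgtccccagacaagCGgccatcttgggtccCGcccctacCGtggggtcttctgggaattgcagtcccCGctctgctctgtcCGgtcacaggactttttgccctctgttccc

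The MACROD2 window, chr20:13995266-13995565 on the plus strand, is 73.3% G or C and holds 34 CpG dinucleotides. It lay under a DMSO peak at chr20:13995161-13996394 that was 4.01 times local background and also reached into the extent of SEL1L2 next to it, and the nearest peak of the other lists was 47.1 kb away or more. The DLG2 window, chr11:84720893-84721192 on the minus strand, starts a transcript inside the gene, is 68.3% G or C and holds 21 CpG. It was overlapped by a DMSO peak of 5.34 times and a doxorubicin peak of 6.40 times background, while the nearest peak was 19.8 kb away with OTS186935 and 73.3 kb away with the combination. The WWOX window, chr16:78099404-78099703 on the plus strand, holds 38 CpG, more than the other 3 printed, and had no peak over it; its nearest peaks were 1.33 kb away with DMSO and 1.31 kb away with OTS186935. The FHIT window, chr3:61251403-61251702 on the minus strand, is 55% G or C with 13 CpG, and its nearest peak was an OTS186935 peak 0.999 kb away.

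Members with a row in the promoter table were 6, with 16 windows in all. Of these, 2 overlapped a DMSO peak, 1 a doxorubicin peak and 0 a peak of the other lists. Over all 34961 listed promoters the shares with a peak were 12.8%, 8.97%, 6.31% and 4.65% in the order DMSO, OTS186935, doxorubicin and combination. The median CpG count was 7 in the 16 member windows, 14 in all windows and 23 in windows with a DMSO peak, and 9.94% of all windows held at least as many CpG as that of WWOX. Most of the 16 windows are starts of DLG2, many of them inside the gene, so the median of 7 mainly describes that gene. The windows at the 5′ ends of WWOX, MACROD2, IMMP2L, DLG2 and FHIT held 38, 34, 31, 22 and 13 CpG. The only window of NAALADL2, inside the gene, held 0. No peak lay over a listed start of FHIT, WWOX or IMMP2L in any list.

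Across the 8 gene bodies, peaks were sparse in all 4 libraries. The genes held 119 peaks under DMSO, 86 under OTS186935, 86 under doxorubicin and 44 under the combination. Per Mb this was 9.10 (7.54 to 10.9), 6.58 (5.26 to 8.12), 6.58 (5.26 to 8.12) and 3.36 (2.44 to 4.52), all below the level of the whole list in the same library. Every one of the 8 genes was less dense in peaks than its own chromosome in all 4 libraries. Long genes in general are also sparse: the 203 other protein-coding genes of 600 kb or more held 14.9, 12.3, 9.90 and 6.06 peaks per Mb when pooled, with medians over genes of 10.1, 7.81, 6.99 and 4.16. Against genes of like length, those within a factor of 1.5 of each member, 4 of the 8 members were below the median under DMSO, 7 under OTS186935, 5 under doxorubicin and 6 under the combination. Pooled density was lower inside the genes than beside them. In the 1 Mb on either side the pooled density was 14.3, 11.1, 10.4 and 5.69 peaks per Mb, and 6, 7, 8 and 7 of the 8 genes were below their own flanks. The lower-coordinate side of CSMD1 alone gave 41 of the 229 DMSO flank peaks. With DMSO the flank density lay above the gene's interval for FHIT, MACROD2, CSMD1 and DLG2. It lay inside the interval for WWOX, IMMP2L, LRP1B and NAALADL2. Flanks of other long genes were not counted, so the difference may not be particular to these genes.

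**Figure D1:**
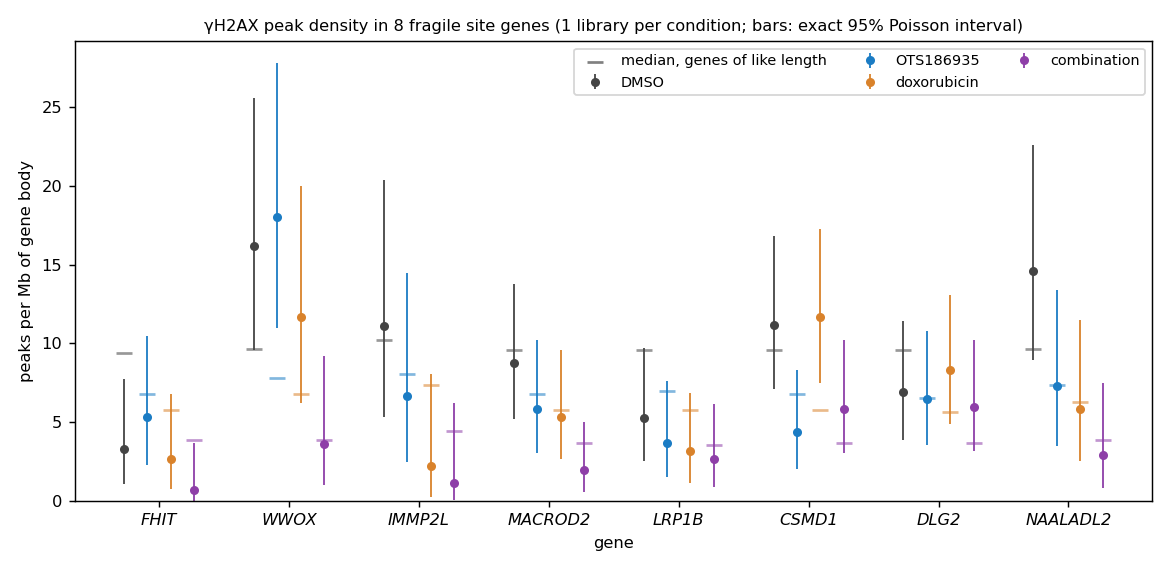
Peaks per Mb of gene body (vertical axis) for each of the 8 genes and 4 libraries, as points with exact 95% Poisson intervals, beside short lines for the median of genes of like length in the same library. FHIT and LRP1B sit below that median in all 4 libraries (3.32 and 5.26 peaks per Mb with DMSO), while WWOX sits above it with DMSO, OTS186935 and doxorubicin (16.2, 18 and 11.7).

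Densities differed among the 8 genes. With DMSO they ran from 3.32 peaks per Mb in FHIT to 16.2 in WWOX, with OTS186935 from 3.68 in LRP1B to 18 in WWOX, with doxorubicin from 2.22 in IMMP2L to 11.7 in WWOX and CSMD1, and with the combination from 0.665 in FHIT to 5.98 in DLG2. Neighbours in these orders mostly lay within each other's intervals. With DMSO the intervals of FHIT (1.08 to 7.76) and WWOX (9.58 to 25.6) did not overlap. These 2 genes were picked as the lowest and highest after ranking, and the intervals do not allow for that.

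FHIT encodes a hydrolase of dinucleoside polyphosphates and covers the site FRA3B, the most breakable of the fragile sites in lymphocytes. It lies on chr3:59747277-61251452 on the minus strand. It held 5 peaks under DMSO, 8 under OTS186935, 4 under doxorubicin and 1 under the combination. That is 3.32, 5.32, 2.66 and 0.665 per Mb, and with DMSO only 2 of 59 genes of like length were less dense. The flanks of FHIT held 12.5 peaks per Mb with DMSO, above the upper bound of the gene's own interval (7.76), and 6.50, 5.00 and 3.50 in the other libraries, inside the gene's intervals there. The highest FHIT peak in DMSO was at chr3:61221831-61222176, 29.4 kb from the 5′ end, at 6.19 times background. The highest FHIT peak in the OTS186935 list, chosen after its values were seen, was in no other list; it lay at chr3:61202024-61202572, with 14 fragments at its summit and 9.67 times background.

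WWOX encodes an oxidoreductase with WW domains, a putative tumour suppressor at the site FRA16D, and lies on chr16:78099654-79212667 on the plus strand. It held 18 peaks under DMSO, 20 under OTS186935, 13 under doxorubicin and 4 under the combination, or 16.2, 18, 11.7 and 3.59 per Mb. It was the densest of the 8 genes with DMSO and OTS186935, and 101 and 107 of 130 genes of like length were less dense; with the combination 60 of 130 were. Its highest DMSO peak lay at the 3′ end, chr16:79211580-79212044, at 9.15 times background with 13 fragments. That stretch is also inside the RefSeq extent of MAF, which encodes a leucine zipper transcription factor, so the peak cannot be assigned to either gene. A combination peak overlapped it at 6.22 times background, and the OTS186935 and doxorubicin lists had none there.

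MACROD2 encodes an enzyme that removes mono-ADP-ribose from proteins and lies on chr20:13995516-16053197 on the plus strand. It held 18, 12, 11 and 4 peaks in the order DMSO, OTS186935, doxorubicin and combination, or 8.75, 5.83, 5.35 and 1.94 per Mb. It was below the median of its 20 genes of like length in each list, by less than 1 peak per Mb in the first 3 (medians of 9.61, 6.77, 5.75 and 3.68). Its highest DMSO peak was at chr20:14203719-14204127, at 9.60 times background, and peaks at the same place were in the OTS186935 and doxorubicin lists but not in that of the combination.

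IMMP2L encodes a subunit of the peptidase of the inner mitochondrial membrane and is the shortest of the 8 genes, on chr7:110662644-111562492 on the minus strand. Its peaks numbered 10 under DMSO, 6 under OTS186935, 2 under doxorubicin and 1 under the combination. The densities of 11.1, 6.67, 2.22 and 1.11 per Mb went from above the median of 181 genes of like length with DMSO, where 104 were less dense, to near the bottom with doxorubicin and the combination, where 14 and 24 were. The single peak left in the combination list was over the strongest peak of all 8 genes, described with the shared regions.

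LRP1B encodes an endocytic receptor of the low-density lipoprotein receptor family and lies on chr2:140231423-142131016. It held 10, 7, 6 and 5 peaks, or 5.26, 3.68, 3.16 and 2.63 per Mb. Of its 27 genes of like length, 2 were less dense in each of the DMSO, OTS186935 and doxorubicin lists and 8 in that of the combination. Here the flanks were sparse too, with 7.00, 5.00, 6.00 and 1.5 peaks per Mb.

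CSMD1 encodes a large membrane protein of CUB and sushi domains that restrains complement, and lies on chr8:2935361-4994914. Its peaks numbered 23 under DMSO, 9 under OTS186935, 24 under doxorubicin and 12 under the combination, or 11.2, 4.37, 11.7 and 5.83 per Mb. It was thus above 16 of 20 genes of like length with DMSO, above 2 with OTS186935, above 19 with doxorubicin and above 17 with the combination. The 1 Mb on its lower-coordinate side held 41, 40, 34 and 19 peaks and that on its higher-coordinate side 5, 5, 5 and 1, so the OTS186935 library was close to that of DMSO on the dense side of the gene while its count inside the gene was 9 against 23. In 4 equal parts of the gene in coordinate order, DMSO had 6, 4, 6 and 7 peaks, OTS186935 4, 2, 1 and 2, doxorubicin 10, 2, 5 and 7, and the combination 5, 3, 2 and 2. The highest DMSO peak of CSMD1 was at chr8:3421775-3422112, at 7.57 times background.

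DLG2 encodes a scaffold protein of synapses and is the longest of the 8 genes, on chr11:83455012-85628373 on the minus strand. It held 15, 14, 18 and 13 peaks, or 6.90, 6.44, 8.28 and 5.98 per Mb, the narrowest range over the libraries of any member. The rank of DLG2 among its 16 genes of like length went from above 2 with DMSO to above 8, 14 and 15 with OTS186935, doxorubicin and the combination. Its flanks held 20, 12.5, 16 and 7.00 peaks per Mb.

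NAALADL2 encodes a protein related to glutamate carboxypeptidase and lies on chr3:174440982-175810548 on the plus strand. It held 20 peaks with DMSO and 10, 8 and 4 with OTS186935, doxorubicin and the combination, or 14.6, 7.30, 5.84 and 2.92 per Mb. With DMSO it was denser than its flanks (10.5 per Mb) and than 54 of 75 genes of like length; with each treatment it was below both its flanks and the median of those genes. Its highest DMSO peak, chr3:174735814-174736195, stood at 6.88 times background.

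By the summed absolute difference in peaks per Mb over the 4 libraries, the gene of like length nearest to FHIT was NRG3 at 1.52, with 3.6, 5.40, 3.6 and 0.899 peaks per Mb. NAALADL2 was nearest to SGCZ at 1.59 and IMMP2L to HDAC9 at 2.24. MACROD2 was nearest to EYS at 3.29 and DLG2 to CTNNA2 at 4.24. The distances were larger for WWOX, 6.76 to DLGAP1, and for CSMD1, 8.29 to AGBL4. Among the 137 other genes of 750 kb or more, densities with DMSO went from 0 in PCDH11X to 122 per Mb in PTPRN2. The middle 50% of the 203 genes of 600 kb or more lay between 7.27 and 16.5, and the members ran from 3.32 to 16.2.

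Another 13 large genes known to lie at fragile sites were sparse in peaks too. They held 11.7, 9.31, 7.02 and 4.21 peaks per Mb when pooled, with medians of 9.18, 5.86, 4.51 and 3.15 against 9.93, 6.14, 5.59 and 2.78 for the 8 members. Those below the median of long genes numbered 10, 9, 8 and 9 of the 13 in the 4 libraries. The exceptions included AUTS2, a regulator of neuronal transcription, with 22.6, 25.1, 15.9 and 12.6 peaks per Mb.

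Along the genes, the shares of other long genes at the 2 ends lay inside the members' intervals. For the 6 members with a strand in the table, the first 10% of the gene held 16.3% of peaks with DMSO (9.20 to 25.8), 20% under OTS186935, 14.3% under doxorubicin and 18.5% under the combination. In 170 other long genes it held 13.7%, 13.0%, 13.7% and 14.2%. The last 10% held 8.14%, 5.71%, 10.7% and 14.8% in the members and 13.0%, 12.2%, 12% and 12.4% in the other genes. The fourth of 10 equal parts held 14.0% with DMSO (7.42 to 23.1) beside 6.72% in the other genes. With OTS186935 it held 17.1% (9.18 to 28.0) beside 7.60%. WWOX gave 4 of the 12 DMSO peaks and 5 of the 12 OTS186935 peaks there. The other 9 parts in these libraries, and all parts with doxorubicin and the combination, had the other genes' share inside the members' interval. The fourth part was picked after all 10 parts of the 4 libraries were looked at, and the intervals do not allow for that. Some of its peaks lie at the same positions with DMSO and OTS186935, so the 2 values are not separate observations. FHIT was uneven: its 5 DMSO peaks all lay in the first 34.8% of the gene counted from the 5′ end, and its OTS186935 peaks either in the first 22.7% or from 85.7% of the gene onwards. With the gene cut into 10 equal parts, MACROD2 had 0 peaks in the last 3 parts with OTS186935 and the combination, against 4 with DMSO.

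**Figure D2:**
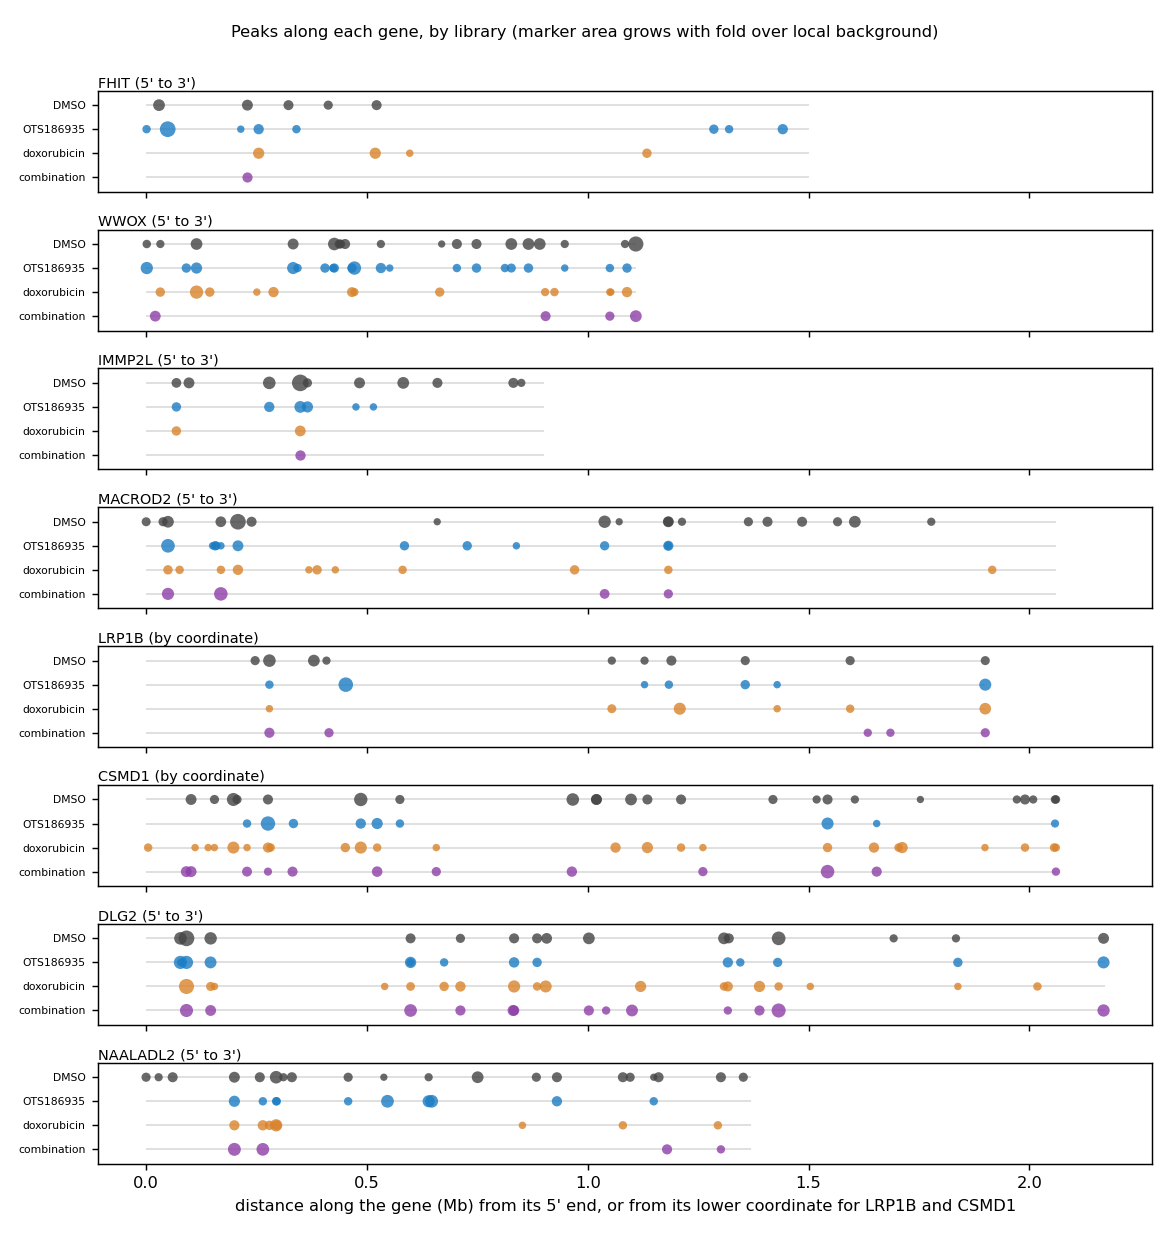
Position of each peak along each gene in Mb (horizontal axis), from the 5′ end or, for LRP1B and CSMD1, from the lower coordinate, with 1 row per library and marker area growing with fold over local background. FHIT has no DMSO peak beyond the first 34.8% of its length, and the row of the combination is nearly empty in FHIT and IMMP2L (1 peak each) and nearly as full as that of DMSO in DLG2 (13 against 15).

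Peaks at the gene ends differed from list to list. Within 1 kb of either end, 5 of 8 members had a peak with DMSO (38.7% of all protein-coding genes and 50.2% of the long ones), 1 with OTS186935 (28.7% and 43.3%), 2 with doxorubicin (21.9% and 37.4%) and 3 with the combination (14.8% and 28.6%). LRP1B had one at its higher-coordinate end in all 4 lists, at 4.05, 6.44, 6.11 and 4.15 times background. CSMD1 had one at that end with DMSO, doxorubicin and the combination, at 3.65, 3.35 and 3.54 times. No strand was given for LRP1B and CSMD1, so whether that end is the 5′ or the 3′ end was not told apart here. Within that limit, the 5′ ends of MACROD2 and NAALADL2 carried a peak with DMSO only, at 4.01 and 4.13 times. The limit of 1 kb was not varied, and several peaks lay just beyond it. OTS186935 peaks of FHIT and WWOX had midpoints 1.22 and 1.69 kb from the 5′ end, and a DMSO peak of WWOX 1.64 kb. At its 3′ end DLG2 had peaks just beyond the limit with DMSO, OTS186935 and the combination. The counts per list therefore depend on the limit.

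Clusters, defined as 3 or more peaks with gaps of at most 10 kb, were few in these genes, which were also sparse in peaks. WWOX had 1 with DMSO, of 3 peaks over 14.1 kb at chr16:78537650-78551796, whose peaks stood at 4.01 to 4.81 times background and were in no other list. MACROD2 had 1 with OTS186935, of 4 peaks over 19.0 kb at chr20:14146021-14165022, of which the last overlapped a region called in all 4 lists. These peaks stood at 2.86 to 4.30 times background, with summits of 3, 5, 4 and 3 fragments in coordinate order. A summit of 3 is the lowest in the OTS186935 list. Doxorubicin and the combination had 0. The share of members with a cluster was thus 12.5% with DMSO and 12.5% with OTS186935, each resting on 1 gene of 8. Other long genes had 141, 97, 51 and 20 clusters, found in 19.7%, 15.8%, 10.3% and 4.43% of the genes. Among those no denser than the densest member, the share was 3.31%, 2.50%, 1.34% and 0%. With DMSO and OTS186935 the members' share lay between these 2 sets. Pairs of neighbouring peaks within 10 kb numbered 6.72, 12.8, 9.30 and 2.27 per 100 member peaks, against 25.8, 22.7, 16.9 and 13.0 in other long genes, which were also denser.

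FHIT and LRP1B held long stretches without any peak. With the 4 lists joined, the longest was 538 kb in FHIT (chr3:60113937-60652273), 35.8% of the gene, and 2 of 59 genes of like length had a longer one (median 232 kb). In LRP1B it was 601 kb (chr2:140684089-141285107), 31.6% of the gene, and 1 of 27 had a longer one (median 247 kb). In DLG2, CSMD1, IMMP2L, MACROD2, NAALADL2 and WWOX it was 385, 307, 181, 172, 149 and 114 kb. For WWOX, 113 of 130 genes of like length had a longer one, and for MACROD2 19 of 20. In the DMSO library alone the FHIT stretch was 980 kb (chr3:59747277-60727741), 65.2% of the gene from its 3′ end inwards, longer than in any of the 59 genes of like length. FHIT then had 948 kb without a peak with OTS186935, 538 kb with doxorubicin and 1274 kb with the combination, and LRP1B 645, 675, 774 and 1219 kb. With doxorubicin 17 of the 59 genes of like length had a longer one than FHIT. With OTS186935, CSMD1 had 967 kb and MACROD2 876 kb without a peak, and 1 of 20 genes of like length had a longer one in each case. A peak list holds no coverage between its peaks, so a stretch without a called peak cannot be told apart from one with few or no mapped reads.

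**Figure D3:**
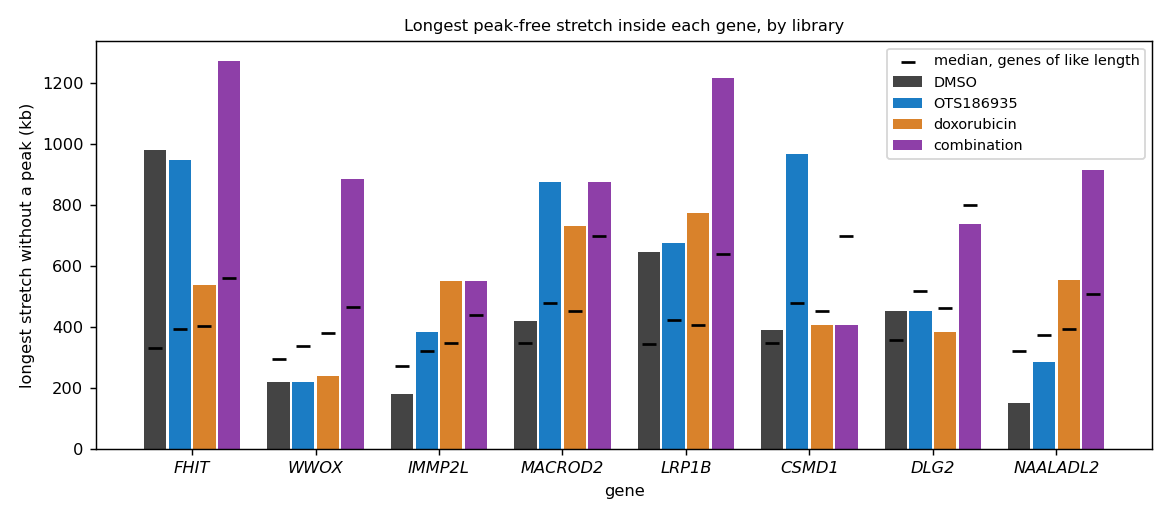
Longest stretch without a peak inside each gene in kb (bars, starting at 0), by library, with black lines for the median of genes of like length in the same library. FHIT exceeds that median in all 4 libraries (980 kb against 330 with DMSO), as does LRP1B (645 against 344), while WWOX exceeds it with the combination only (885 against 466).

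Counts with each treatment were set against DMSO next; these comparisons share the DMSO library. The members' ratio was 0.723 with OTS186935 (0.541 to 0.962), 0.723 with doxorubicin (0.541 to 0.962) and 0.370 with the combination (0.255 to 0.527). The whole lists stood at 0.820, 0.652 and 0.401 and other long genes at 0.826, 0.663 and 0.406, each inside the members' interval. With a −log10 q of 5 or more this differed for the combination, where 11 member peaks against 28 under DMSO gave 0.393 while the list stood at 0.133. Members at or below 1/2 of their DMSO count were 2 of 8 with OTS186935 (12.6% of 182 long genes with at least 5 DMSO peaks), 2 with doxorubicin (26.4%) and 6 with the combination (73.6%). None reached 2 times its DMSO count with any treatment (0.549%, 0% and 0%).

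With OTS186935 the low ratios were those of CSMD1, 0.391 (0.159 to 0.878), and NAALADL2, 0.500 (0.209 to 1.12), and the ratio of FHIT was 1.60 (0.462 to 6.22) on 5 and 8 peaks. With doxorubicin, IMMP2L stood at 0.200 (0.0213 to 0.939) and NAALADL2 at 0.400 (0.152 to 0.948), and DLG2 and CSMD1 at 1.20 and 1.04. With the combination, IMMP2L, FHIT, NAALADL2, WWOX and MACROD2 stood between 0.100 and 0.222. LRP1B and CSMD1 stood at 0.500 and 0.522 and DLG2 at 0.867 (0.380 to 1.95). For each gene and treatment the interval contained the ratio of the whole list.

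**Figure D4:**
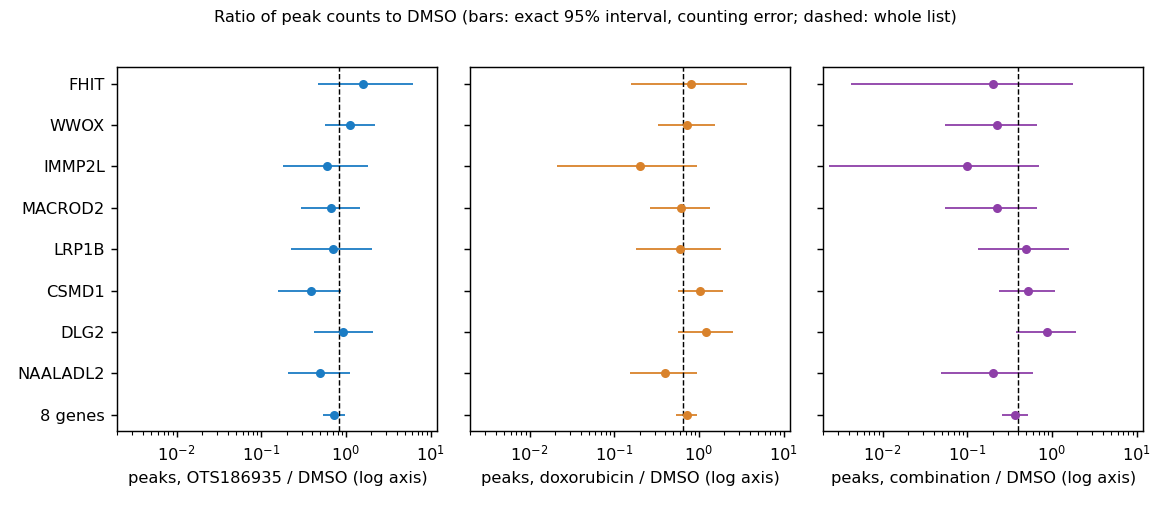
Ratio of each gene's peak count to its DMSO count on a log axis, by treatment, with exact 95% intervals for counting error, and dashed lines at the ratio of the whole list (0.820, 0.652 and 0.401). The interval of every gene spans the dashed line, and the lowest and highest ratios with the combination are those of IMMP2L (0.100) and DLG2 (0.867).

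Against the single drugs, the combination gave 0.512 of the members' doxorubicin peaks (0.347 to 0.744; list 0.615) and 0.512 of their OTS186935 peaks (0.347 to 0.744; list 0.489). Of the 6 members with at least 5 doxorubicin peaks, 4 were at or below 1/2 (42.9% of 147 long genes), and of the 8 with at least 5 OTS186935 peaks 5 were (59.9% of 162). Beside OTS186935, LRP1B stood at 0.714, DLG2 at 0.929 and CSMD1, with 12 peaks against 9, at 1.33 (0.516 to 3.58). With a −log10 q of 5 or more, the members' ratio was 1.22 beside doxorubicin (list 0.520) and 0.611 beside OTS186935 (list 0.234).

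These ratios rest on lists of unequal length. When the 29213 strongest peaks of each list by −log10 p were kept, the members held 40, 32, 43 and 44 peaks in the order DMSO, OTS186935, doxorubicin and combination, and the ratios to DMSO became 0.800, 1.07 and 1.10, where the lists stand at 1.00 by construction. DLG2 then held 8, 7, 9 and 13 peaks and CSMD1 7, 4, 10 and 12, while IMMP2L held 5, 3, 2 and 1 and WWOX 7, 5, 7 and 4. NAALADL2 changed sides: it held 3, 5, 5 and 4, and its ratios to DMSO of 0.500, 0.400 and 0.200 became 1.67, 1.67 and 1.33. The members' share of the full lists was 0.163%, 0.144%, 0.181% and 0.151%.

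Peaks in the members had folds near those of their lists and a lower background. Their median fold was 4.81, 4.30, 3.80 and 4.90 beside 4.28, 4.30, 4.10 and 4.20 for all peaks of the same list; these folds, and the −log10 q, are the authors' values and rank peaks only within a list. The local background was at the library's floor for 76.5%, 70.9%, 75.6% and 47.7% of member peaks, against 33.1%, 31.1%, 30.3% and 16.8% of all peaks. Median summits of the merged member peaks were 6, 5, 5 and 7 fragments high. Over the rows of the lists before merging they were 8, 7, 7 and 7. A peak with several summits counts more than once among those rows, so the medians are not strictly alike. Peaks whose summit was 3 fragments, the lowest admitted, numbered 6, 11, 20 and 0, and those of 10 fragments or more 12, 9, 4 and 6. The share of member peaks on 3 fragments was thus 5.04% under DMSO (4.38% of the list), 12.8% under OTS186935 (5.45%) and 23.3% under doxorubicin (7.64%). With a −log10 q of 5 or more, the members kept 28, 18, 9 and 11 peaks: 23.5%, 20.9% and 10.5% with DMSO, OTS186935 and doxorubicin, beside 25.6%, 17.7% and 10.0% of all peaks, and 25.0% with the combination (13.2 to 40.3) beside 8.47%. DLG2 gave 5 of those 11 combination peaks.

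Set library against library, the DMSO peaks of the members were mostly without a partner in any single treated library. Of the 119 DMSO peaks, 76 had no overlapping peak with OTS186935 (55.6% of all DMSO peaks had none), 85 none with doxorubicin (64.9%) and 95 none with the combination (76.4%). The shares found were 36.1% (27.5 to 45.4), 28.6% (20.7 to 37.6) and 20.2% (13.4 to 28.5), with 44.4%, 35.1% and 23.6% over all peaks inside each interval. Read the other way, 43 of the members' 86 OTS186935 peaks had no DMSO peak (45.7% of all OTS186935 peaks), nor did 20 of 44 combination peaks (40.7%). Of the doxorubicin peaks 52 of 86 had none there (45.9% of all doxorubicin peaks), so 39.5% (29.2 to 50.7) had one, beside 54.1% of all. Without an overlapping combination peak were 61 of 86 doxorubicin peaks (72.7% of all) and 63 of 86 OTS186935 peaks (74.3%), close to the lists. By gene, FHIT had 0 of 5 DMSO peaks in OTS186935, 0 in doxorubicin and 1 in the combination. WWOX had 10 of 18 in OTS186935 but 2 in doxorubicin and 1 in the combination. CSMD1 went the other way round, with 5 of 23 in OTS186935, 10 in doxorubicin and 5 in the combination. DLG2 had 8, 9 and 8 of 15, MACROD2 6, 4 and 4 of 18, LRP1B 4, 4 and 2 of 10, IMMP2L 4, 2 and 1 of 10, and NAALADL2 6, 3 and 2 of 20.

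Joined over the 4 lists, the peaks of the members made 210 regions. Of these 129 (61.4%) were in 1 library, 51 (24.3%) in 2, 16 (7.62%) in 3 and 14 (6.67%, 3.69 to 10.9) in all 4. The share in all 4 was 7.36% of 123975 regions genome-wide and 6.84% of those in other long genes. DLG2 had 5 of its 30 regions in all 4 libraries, MACROD2 3 of 31, LRP1B 2 of 17, CSMD1 2 of 40, IMMP2L 1 of 12 and NAALADL2 1 of 28. FHIT with 0 of 16 and WWOX with 0 of 36 had none, although WWOX had 15 regions in 2 libraries; a count of 0 leaves room for shares of up to 20.6% and 9.74%.

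**Figure D5:**
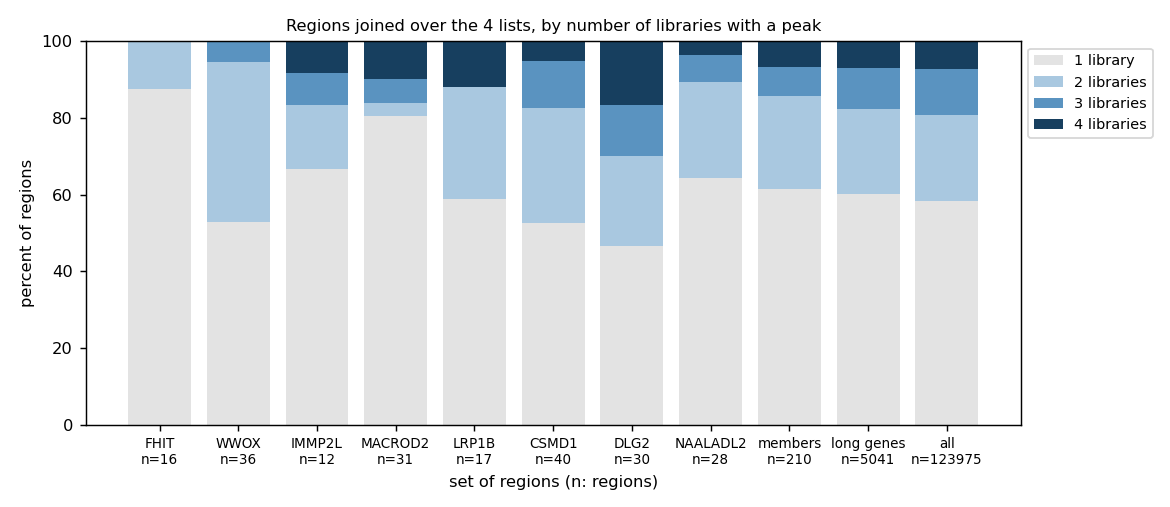
Percent of joined regions (vertical axis, stacked to 100) called in 1, 2, 3 or 4 libraries, for each gene, the 8 genes together, other long genes and all regions, with the number of regions under each bar. The darkest part, regions in all 4 libraries, is 16.7% in DLG2 and 0% in FHIT and WWOX, and 6.67% in the 8 genes beside 7.36% of all regions.

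The regions in all 4 libraries are the best repeated positions in these genes. The strongest was in IMMP2L at chr7:111212883-111213651, 38.8% along the gene and also inside the lncRNA LOC124901725. It stood at 10.5, 6.19, 5.43 and 5.02 times background, with a DMSO summit of 23 fragments on a local background of 1.29. In DLG2 the 3 of highest DMSO fold were chr11:85536437-85536908 (9.62, 7.40, 9.09 and 7.31 times), chr11:84194692-84195325 (7.82, 4.22, 3.6 and 8.16) and chr11:85481575-85482376 (6.75, 6.32, 4.09 and 5.48). The first and last of these lie in the first 6.74% of the gene. In MACROD2 they were chr20:14044750-14045528 (6.19, 7.82, 4.32 and 6.52 times), chr20:15176784-15177322 (5.47, 3.52, 3.6 and 4.20) and chr20:14164286-14165022 (5.34, 2.86, 3.6 and 7.70).

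LRP1B had chr2:140511165-140511792, at 6.88, 3.58, 2.88 and 4.90 times, and, at its higher-coordinate end, chr2:142129971-142130909. In CSMD1 the regions were chr8:3211503-3212223, at 4.81, 8.45, 4.90 and 3.39 times, and chr8:4477021-4477511, at 4.81, 6.44, 4.32 and 7.70. In NAALADL2 the region chr3:174640666-174641391 stood at 5.50, 5.73, 4.95 and 7.17 times. Of these 14 regions 2 lay within the extent of another annotated gene, both lncRNAs. Exons and introns were not told apart here, since the table gives extents only.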

How the data were processed

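Chromatin of 4 SK-UT1 cultures was immunoprecipitated for γH2AX, 1 library per condition. Per the submitters' processing notes, Bowtie2 2.4.2, Picard 2.25.3, bedtools 2.30.0 and MACS2 2.2.7.1 were used with hg38; the role of each, the options and whether an input was used are not stated there. The deposited peak lists give, per summit, the authors' score (not used), fold (a ratio over local background), −log10 p and −log10 q. Here, rows that overlapped or touched were merged within a list. Extents came from a RefSeq table of GRCh38.p14, and peaks were assigned by midpoint. Summit heights in fragments and local backgrounds were obtained by inverting MACS2's definitions of the deposited fold and −log10 p. Regions are peaks of the 4 lists joined where they overlap or touch, and 2 peaks were shared if at least 1 bp was common to both. Narrow peaks do not measure broad γH2AX domains.

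Intervals are exact at 95%. With 1 library per condition no test was made. The 8 genes, the 13 others, the alternatives and the rule for what is named were chosen with earlier results of these data known. That rule took, per member, the DMSO peak of highest fold, the regions in all 4 lists (at most 3), the largest cluster and the 1 gene of like length most alike, which for LRP1B is not reported here. Alternatives were a −log10 q of 5 or more, joining within 1 kb, any overlap, rows not merged, lists of equal length, a reciprocal overlap of 50%, cluster gaps of 5 and 20 kb, lengths within 1.25 times, flanks of 500 kb and, added after seeing the data, summits of 4 fragments or more. On simulated data, 0 of 211 gene counts and 0 of 3924 pileups were wrong. The simulated pileups were made with the same definitions that were inverted, so they check the arithmetic only. In the deposited lists 565, 2108, 422 and 1400 rows with DMSO, OTS186935, doxorubicin and the combination had 2 solutions within the tolerance. The closer solution was taken, so summit heights of such rows are less certain. Python 3.11.15, pandas 2.3.3, numpy 2.4.6, scipy 1.17.1 and matplotlib 3.10.9 were used.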

Additional observations from a re-analysis of the deposited data

Results flagged for a closer look

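In 3 of the genes the ratio of peak counts for a drug was on opposite sides of 1 without and with the other drug. None of these differences was tested, since each count comes from 1 library. Every member was checked for both drugs. Other long genes were not checked in this way, so the share of them that would be flagged is not known. The count of 3 is therefore no result about the members as a set.

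In FHIT, peaks with OTS186935 over peaks without it were 1.60 in the absence of doxorubicin (8 against 5) and 0.250 in its presence (1 against 4), so that the second ratio was 0.156 of the first. In WWOX the ratios were 1.11 (20 against 18) and 0.308 (4 against 13), a quotient of 0.277. In DLG2, peaks with doxorubicin over peaks without it were 1.20 in the absence of OTS186935 (18 against 15) and 0.929 in its presence (13 against 14), a quotient of 0.774. The 95% counting intervals of all these ratios but that of WWOX with both drugs, 0.0731 to 0.996, contained 1, and the combination list was the shortest of the 4. The whole lists gave 0.820 and 0.615 for OTS186935 without and with doxorubicin, and 0.652 and 0.489 for doxorubicin without and with OTS186935, so the lists moved the same way. With lists of equal length FHIT stayed on opposite sides, 1.5 and 0.333 on at most 3 peaks, while WWOX, 0.714 and 0.571, and DLG2, 1.12 and 1.86, did not.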

How the results depend on the processing

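The members' pooled densities, ratios, shares and clusters were recomputed under each alternative. Of 63 values for the members together, 43 stayed within their interval or within 1.5 times the count. With a −log10 q of 5 or more, density was 2.14 peaks per Mb under DMSO, 1.38 under OTS186935, 0.688 under doxorubicin and 0.841 under the combination; doxorubicin over DMSO was 0.321 (list 0.255), combination over doxorubicin 1.22 (list 0.520) and combination over DMSO 0.393 (list 0.133); and the share of such DMSO peaks found was 57.1% in OTS186935, 42.9% in doxorubicin and 35.7% in the combination (64.8%, 56.0% and 40.8% over all peaks). With lists of equal length, doxorubicin over DMSO was 1.07, combination over DMSO 1.10, combination over doxorubicin 1.02 and combination over OTS186935 1.38, and 40% of DMSO peaks were found in the combination (35.8% over all peaks). With summits of 4 fragments or more, an alternative chosen after seeing the data, doxorubicin held 5.05 peaks per Mb. With cluster gaps of at most 5 kb there were 0 clusters with DMSO and 0 with OTS186935, and with 20 kb there were 3, 3 and, with doxorubicin, 1. Equal lists and stricter limits leave fewer peaks by construction; other causes were not tested. Of 80 ratios of single genes 8 moved, all with lists of equal length, where counts were 12 or fewer. No paired analysis was possible because each condition has 1 library. Counts of 1 to 24 peaks per gene limit every ratio.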

Other observations

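Regions of the members seen in a single library numbered 57 in DMSO only (27.1% of 210, beside 23.6% of all regions), 28 in OTS186935 only (13.3% beside 16.4%), 35 in doxorubicin only (16.7% beside 12.4%) and 9 in the combination only (4.29% beside 6.07%). CSMD1 had 10 regions in DMSO only, 10 in doxorubicin only and 0 in OTS186935 only, and MACROD2 had 12 in DMSO only and 0 in the combination only. LRP1B had 3 of its 17 regions in the combination only. Regions called in at least 2 treated libraries and not with DMSO numbered 19 of 210 (9.05%, beside 6.60% of all regions and 6.72% in other long genes), of which 6 were in CSMD1, 5 in WWOX and 4 in DLG2.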
